A study of Drosophila melanogaster with 4 samples.

Results

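The genes for guide RNAs of the nucleolus and the Cajal body, the snoRNAs and scaRNAs, were followed through a pulldown of pseudouridine-containing RNA from Drosophila ovaries. A gene was included when its FlyBase symbol, looked up by gene identifier in the dm6 annotation, starts with snoRNA: or scaRNA:. This gave 258 of the 17023 genes counted, and 16 further annotated members were not matched to the counted identifiers and were not analysed here. By the target written in the symbol, 106 genes are Psi guides (pseudouridylation), 73 are Me guides (2'-O-methylation) and 79 carry other names, among them 15 scaRNAs.

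RNA came from ovaries of WT flies, and 4 libraries were compared. Inputs 1 and 3 received no antibody and are a part of the homogenate set aside before the pulldown. Pulldowns 1 and 3 are RNA retained by a mouse anti-pseudouridine antibody from MBL Life Sciences. All 4 libraries were made from RNA passed over poly(A) selection beads, and a rabbit IgG mock pulldown described in the methods was not analysed here, so RNA that stays on beads or antibody for other reasons cannot be told apart from RNA with pseudouridine. The libraries of a group are separate samples by their titles, but nothing states that they came from separate animals, so test results below measure only the spread between these samples.

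Box H/ACA snoRNAs pair with rRNA and place the pseudouridine synthase Nop60B, the Drosophila homologue of dyskerin, on the uridine to be isomerised, together with NHP2, Gar1 and Nop10. Box C/D snoRNAs direct the methyltransferase Fib (fibrillarin) to the ribose of their target, and scaRNAs do the same work on the small nuclear RNAs of the spliceosome. Most fly snoRNAs are cut out of introns of host genes, many of which encode ribosomal proteins or are Uhg genes (noncoding U snoRNA host genes), and the mature RNA ends without a poly(A) tail.

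The sequences of some genes with reads were searched for the boxes that define each class. These genes are a selection and not those with the most reads in every class. scaRNA:MeU2-C28, for example, had only 10 reads in total. The sequences are given 5′ to 3′ in the sense of the gene, from the RefSeq release 6 assembly, which is dm6. Capitals mark a matched box. For Psi guides these are the H box, searched as ANANNA near the middle of the RNA, and ACA within the last 10 bases. For Me and other guides they are the C box, searched as TGATGA within the first 25 bases, and the D box, searched as CTGA within the last 25.
snoRNA:Psi18S-531 (chrX:763083-763234, minus strand, in RpL22): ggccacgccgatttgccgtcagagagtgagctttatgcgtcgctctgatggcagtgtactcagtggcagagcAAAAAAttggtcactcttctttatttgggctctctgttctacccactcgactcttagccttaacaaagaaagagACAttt
snoRNA:Psi18S-920 (chr3L:11822984-11823124, plus strand, in RpL10Ab): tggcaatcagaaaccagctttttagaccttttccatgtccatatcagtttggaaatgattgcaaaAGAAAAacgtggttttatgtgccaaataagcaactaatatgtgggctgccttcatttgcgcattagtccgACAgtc
snoRNA:Me18S-C1831 (chr2L:4457603-4457674, minus strand, in RpL27A): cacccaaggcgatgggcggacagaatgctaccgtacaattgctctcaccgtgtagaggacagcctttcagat
snoRNA:Me18S-U1356c (chr3L:20454496-20454574, plus strand, in Uhg8): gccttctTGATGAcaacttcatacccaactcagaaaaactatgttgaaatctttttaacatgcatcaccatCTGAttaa
snoRNA:Or-CD12 (chr3L:3221350-3221427, minus strand, in RpL28): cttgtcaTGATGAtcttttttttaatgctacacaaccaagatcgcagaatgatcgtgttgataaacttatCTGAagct
scaRNA:MeU2-C28 (chrX:21051686-21051734, minus strand, in Stt3A): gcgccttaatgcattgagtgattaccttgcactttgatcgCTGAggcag
Neither box was matched in snoRNA:Me18S-C1831, and only the D box was matched in scaRNA:MeU2-C28, which says only that those letters are not in the windows searched.

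Over all members the boxes followed the names. Both H and ACA boxes were matched in 99 of the 106 Psi genes (93.4%), in 2 of the 73 Me genes (2.74%) and in 21 of the 79 others (26.6%). The same search in windows of equal length just downstream of the 258 genes matched both in 21 (8.14%). Both C and D boxes were matched in 58 Me genes (79.5%), 23 others (29.1%), 0 Psi genes and 0 of the downstream windows. Only the sense strand of each gene was searched, and ANANNA was sought within 15% of the length from the midpoint. The median length was 140 bases for Psi genes, 79 for Me genes and 136 for the others, close to the 75-base length of the reads for Me genes. These are properties of the annotation, and a match is not evidence of binding or activity.

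Depth differed widely between the libraries, with total counts from 984979 in pulldown 1 to 12684875 in input 3. On the CPM scale (counts scaled to the total of their library), 3 counts stood for 0.237 in input 3, the deepest library, and for 3.05 in pulldown 1, the shallowest. Markers of the ovary were present, with the 4 of 6 germline genes that could be matched summing to 1400 to 2610 CPM and 7 follicle cell genes to 16000 to 188000 CPM, the highest in pulldown 1. Testis, fat body and midgut markers summed to at most 3.05 CPM, neuron markers to 0 to 33.5 CPM and muscle markers to 117 to 297 CPM. In bulk ovaries, fewer cells of a type and less RNA per cell cannot be told apart. Genes with only 1 to 9 reads made up 1.31% of the genes detected in pulldown 3, where the other libraries had 13.4% to 24.4%, so its counts are short of low values. The part of that shortage in the results below was not tested.

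snoRNAs and scaRNAs were a very small part of every library. Of their 2179 reads, 160 and 1287 were in inputs 1 and 3, while pulldowns 1 and 3 held 13 and 719. As a share of counts this was 0.00377% in input 1 (95% Wilson interval 0.00323 to 0.0044) and 0.00132% in pulldown 1 (0.000771 to 0.00226). In the second pair it was 0.0101% in input 3 (0.00961 to 0.0107) and 0.0113% in pulldown 3 (0.0105 to 0.0122). The inputs differed from each other more than the libraries of the second pair did, and these intervals cover counting error only, since reads without molecular identifiers are not independent molecules. Summed over members, CPM went from 37.7 in the input to 13.2 in the pulldown of replicate 1, a log2 ratio of -1.51, and from 101.0 to 113.0 in replicate 3, a log2 ratio of 0.16. The signs of the pairs thus differed, but the intervals of input 3 and pulldown 3 overlapped, so replicate 3 showed no clear direction. The ratio of replicate 1 rests on only 13 reads in its pulldown. With library sizes scaled by the TMM factors of the edgeR fit, the log2 ratios were -1.11 in replicate 1 and 0.216 in replicate 3.

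Each input had member reads on more genes than its own pulldown, but input 1 and pulldown 3 were close at equal depth. Of the 258 genes, 33 (12.8%) were seen in input 1 and 154 (59.7%) in input 3, with at least 1 read each, whereas pulldown 1 showed 3 (1.16%) and pulldown 3 showed 18 (6.98%). A share of genes seen depends on depth. Thinned to the depth of pulldown 1, 20.6 members were expected in input 1, 54.7 in input 3 and 17.6 in pulldown 3. Pulldown 1 itself showed 3. Thinning takes reads as independent, which they are not. Pulldown 3 held no nonzero member count below 11, so thinning could remove few of its genes, and 17.6 is not a full correction for depth. In input 3 the genes seen held a median of 4 reads and 122 of them held 1 to 9, whereas in pulldown 3 the lowest held 11, the median was 34 and the highest was 78. The 5 leading genes held 34.4% of member reads in input 1 and 25.5% in input 3, against 48.0% in pulldown 3 and all 13 reads in pulldown 1.

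**Figure D1:**
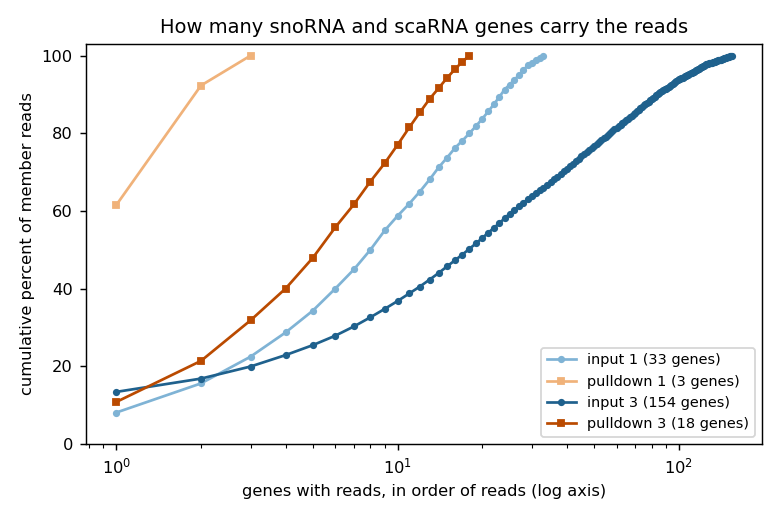
Cumulative percent of the snoRNA and scaRNA reads of each library (vertical axis) against the number of genes, taken in order of reads (horizontal log axis), with 1 point per gene. Pulldown 3 reaches 100% after 18 genes, while input 3 needs 154.

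Across the 4 libraries 157 of the 258 genes had a read and 101 had none. No gene was seen in all 4 libraries, 9 were seen in 3, 33 in 2 and 115 in only 1, of which 112 were seen only in input 3. The shallower input was nested in the deeper one, since 31 of the genes seen in input 1 (93.9%) were also seen in input 3, where they were 20.1% of the genes seen. Input 3 and pulldown 3 shared 17 genes, 11.0% of the former and 94.4% of the latter. Input 1 and pulldown 1 shared 0, and the pulldowns shared 1, snoRNA:Psi28S-1192b. Only snoRNA:Me28S-G3113a, with 11 reads in pulldown 3, was seen in a pulldown and in no input. Of the genes seen in an input, 137 had no read in either pulldown. In the inputs, 47 of these lay above the level that 3 counts over both pulldowns would give. Pulldown 3 held no nonzero member count below 11, so that level is too low for it. Other genes were often absent too. In replicate 3, 93.6% of other genes with 1 to 9 input reads had none in the pulldown, and 58.3% with 20 to 49. Members are set beside them for both replicates below.

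Of all member reads, 949 (43.6%) fell on 10 genes. snoRNA:Psi18S-531, a guide named for a uridine of 18S rRNA, had the most, with 12 and 173 reads in inputs 1 and 3, while pulldowns 1 and 3 held 0 and 59. It was the leading member of input 3, with 13.4% of the member reads there. Its host RpL22, a large-subunit ribosomal protein gene, had 43 and 5137 counts in inputs 1 and 3, while pulldowns 1 and 3 held 0 and 4464. The host was thus low in input 1, while the snoRNA held 7.5% of the member reads there, and both were at 0 in pulldown 1. Reads on the 2 members within RpL22 were 512.0 per 1000 host counts in input 1 and 42.2 in input 3. snoRNA:Psi28S-2179 lies in the same host, at chrX:763942-764086 on the minus strand, and had 10 and 44 reads in inputs 1 and 3, with neither pulldown above 0. The neighbouring Psi guides of 1 host were therefore both seen in both inputs, and only 1 of them in pulldown 3.

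snoRNA:Psi18S-920, in RpL10Ab, had 1 and 40 reads in inputs 1 and 3, while pulldowns 1 and 3 held 0 and 75. snoRNA:Me18S-C1831, in RpL27A, had 0 and 33 in the inputs, against 0 and 78 in the pulldowns, the last being the highest count of pulldown 3. snoRNA:Or-CD12, in RpL28, a guide whose name gives no target, had 0 and 8 reads in the inputs, against 0 and 76 in the pulldowns. For all 3 the bulk of reads came from replicate 3 and pulldown 3 was above its input, while replicate 1 had at most 1 read. Per length, as RPKM (CPM per kilobase of gene), Me18S-C1831 and Or-CD12 stood at 171.0 and 154.0 in pulldown 3, above the 83.9 of Psi18S-920 and the 61.2 of Psi18S-531. In CPM the first 3 were nearly equal there, at 12.31, 11.99 and 11.83. The gap among them thus comes from their lengths of 72, 78 and 141 bases. RPKM takes no account of the 75-base read length, so it is uncertain for genes this short. In input 3 the order was different, with 89.7 for Psi18S-531, 36.1 for Me18S-C1831, 22.4 for Psi18S-920 and 8.09 for Or-CD12.

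snoRNA:Psi28S-1192b, at chrX:17144283-17144420 on the minus strand in RpS5a, had 0 and 19 reads in inputs 1 and 3, while pulldowns 1 and 3 held 1 and 57. snoRNA:Psi28S-291, at chr3R:11223571-11223790 on the plus strand in RpL3, had 13 and 31 in the inputs, the former the highest count of input 1, and 0 and 32 in the pulldowns. It is among the members with comparable counts in both inputs. snoRNA:Me28S-G2173, in RpS16, had 9 reads in input 3, 56 in pulldown 3 and 0 in both libraries of replicate 1. snoRNA:Psi18S-1377d, in RpS7, had 3 and 18 reads in the inputs, against 0 and 43 in the pulldowns, and snoRNA:Psi28S-1175c, also in RpS16, had 11 and 31 in the inputs, against 0 and 16 in the pulldowns. Pulldown 1 held no read of any of these but the single one on Psi28S-1192b.

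**Figure D2:**
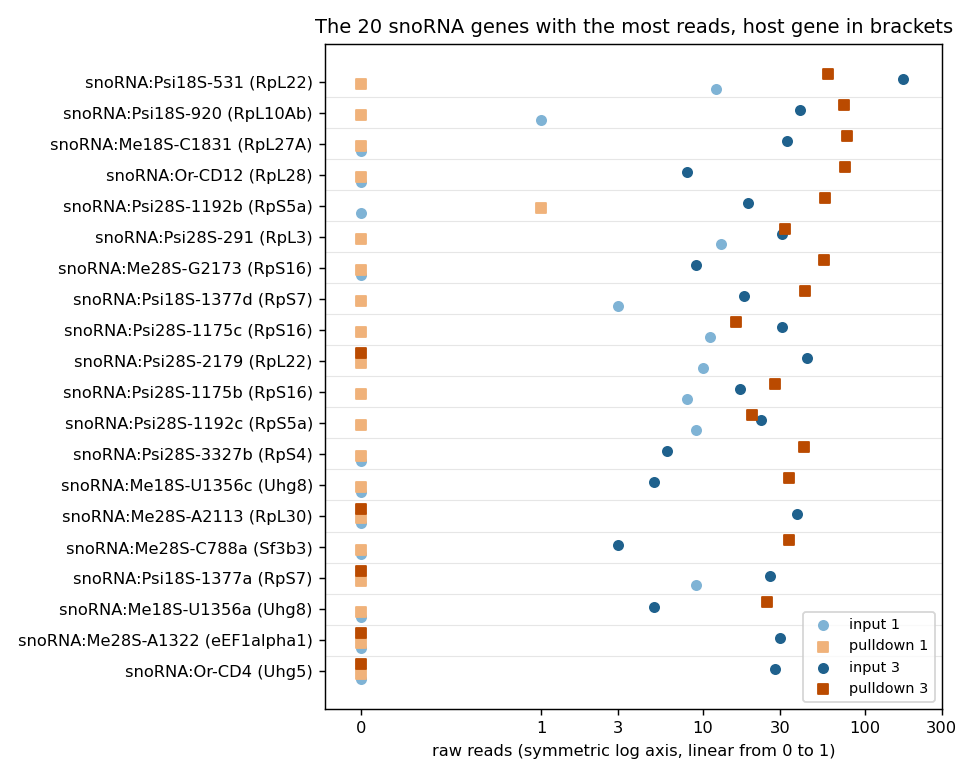
Raw reads (horizontal symmetric log axis, linear below 1) of the 20 snoRNA genes with the most reads over the 4 libraries, host gene in brackets, with 1 point per library. Pulldown 1 is at 0 for all of them except snoRNA:Psi28S-1192b with 1 read, and pulldown 3 is either at 0 or at 16 reads and above.

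Of the 18 genes with reads in pulldown 3, 17 also had reads in input 3, and their CPM was higher in the pulldown for 16 of them and at least 2-fold higher for 14. The exception was Psi18S-531, at 0.683 of its input CPM. Since the lowest nonzero count of pulldown 3 was 11, a gene with few input reads could enter this group only by standing above its input, so the count is a description. The steepest were snoRNA:Me28S-C788a in Sf3b3, with 3 reads in input 3 and 34 in pulldown 3 (22.7-fold in CPM), Or-CD12 (19.0-fold), snoRNA:Psi28S-3327b in RpS4 with 6 and 42 reads (14.0-fold), and snoRNA:Psi28S-1135c with 2 and 14 reads (14.0-fold). Against them stand 137 genes with 861 reads in input 3 and none in pulldown 3, while the genes seen in pulldown 3 had 426 of the input 3 reads. Among those at 0 in both pulldowns were snoRNA:Me28S-A2113 in RpL30 with 38 reads in input 3, snoRNA:Me28S-A1322 with 30, snoRNA:Or-CD4 in Uhg5 with 28 and snoRNA:Or-aca1 in RpS16 with 23, besides 2 in input 1. The sum over members, 101.0 CPM in input 3 and 113.0 in pulldown 3, thus holds genes that stood higher in the pulldown and genes that were not seen there.

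Whether genes absent from the pulldown were peculiar to snoRNAs was read against all other genes with the same number of input reads, a comparison chosen after the data were seen and given without a test. In replicate 3, 114 of 122 members with 1 to 9 input reads had no read in the pulldown (93.4%), against 2256 of 2411 other genes (93.6%). For 10 to 19 input reads it was 13 of 16 members (81.2%) against 403 of 504 other genes (80.0%), and for 20 to 49 reads 10 of 15 (66.7%) against 256 of 439 (58.3%). Members and other genes of like counts were thus close in the lower bands, and 8 of the 122 members and 132 of the 2411 other genes in the lowest band had more reads in the pulldown than in the input. In replicate 1 every member seen in the input was at 0 in the pulldown. This was 19 of 19 with 1 to 4 reads against 543 of 620 other genes (87.6%), 10 of 10 with 5 to 9 reads against 312 of 400 (78.0%), and 4 of 4 with 10 to 19 reads against 301 of 468 (64.3%). Pulldown 1 had 0.232 of the depth of input 1 and pulldown 3 had 0.5 of that of input 3.

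**Figure D3:**
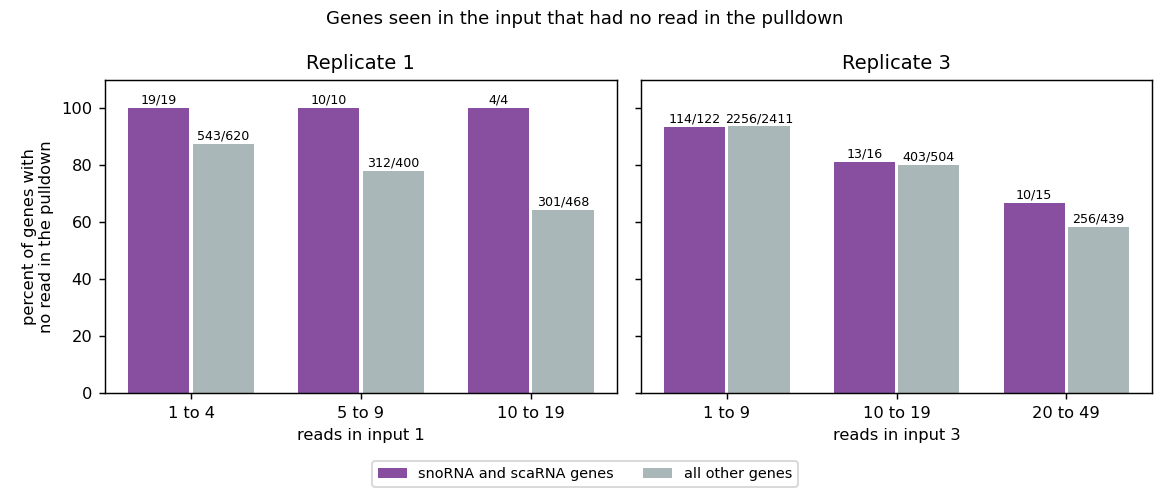
Percent of genes with no read in the pulldown (vertical axis, bars from 0) among genes with a given number of input reads (horizontal axis), for replicate 1 and replicate 3, with the gene numbers above each bar. In replicate 3 the members reach 93.4%, 81.2% and 66.7%, close to the other genes in the first 2 bands, and in replicate 1 they are at 100% in every band shown.

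The guide classes divided the reads unevenly. Psi genes, 41.1% of the members, took 78.1% of member reads in input 1 (Wilson interval 71.1 to 83.8) and 62.1% in input 3 (59.4 to 64.7). In the pulldowns they took 38.5% of only 13 reads (17.7 to 64.5) and 53.7% (50 to 57.3). Me genes, 28.3% of the members, took 8.75% (5.28 to 14.2) and 22.6% (20.4 to 25) in the inputs, 0 of 13 reads in pulldown 1 (0 to 22.8%) and 35.7% (32.3 to 39.3) in pulldown 3. In replicate 3 the Me share was higher in the pulldown and the Psi share lower, but the direction of the Psi share turned without the leading gene of each class, to 58.3% in input 3 and 64.6% in pulldown 3. Replicate 1 has no Me read in its pulldown to set beside this. The remaining genes took 13.1% and 15.3% in the inputs, 61.5% (8 of 13 reads) in pulldown 1 and 10.6% in pulldown 3, where all 76 of their reads were Or-CD12. Per summed length, Psi and Me genes stood at 1.95 and 0.557 RPKM in input 1, at 4.17 and 3.87 in input 3 and at 4.03 and 6.85 in pulldown 3, so the inputs differed in this too. Me genes are close to the read length, so their RPKM is uncertain beside that of Psi genes. The reads of pulldown 3 came from few genes in each class, 10 Psi, 7 Me and 1 other.

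The reads were also divided unevenly by kind of host gene. Of the 258 genes, 244 lie on the same strand within another gene, 72 in ribosomal protein genes, 44 in Uhg genes, 127 in other protein-coding genes and 1 in another noncoding gene. Ribosomal protein genes were taken by symbols starting with RpL or RpS, which leaves sta, also a ribosomal protein gene, among the other hosts, with 2 members and 1 read. The 72 members in ribosomal protein genes, 27.9% of all, took 78.1% of member reads in input 1 (71.1 to 83.8), 67.8% in input 3 (65.2 to 70.3) and 85.5% in pulldown 3 (82.8 to 87.9), but 1 of the 13 reads in pulldown 1. A read was seen on 60 of these 72 genes (83.3%) in at least 1 library, on 34 of the 44 in Uhg genes (77.3%), on 56 of the 127 in other protein-coding genes (44.1%) and on 7 of the 14 without a host. The 127 members in other protein-coding genes took 13.1% and 18.0% of the reads in the inputs, 12 of the 13 reads (92.3%) in pulldown 1 and 6.26% in pulldown 3. The grouping by host was chosen after the data were seen, and reads of the mature RNA and of unspliced host introns cannot be told apart in counts per gene.

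**Figure D4:**
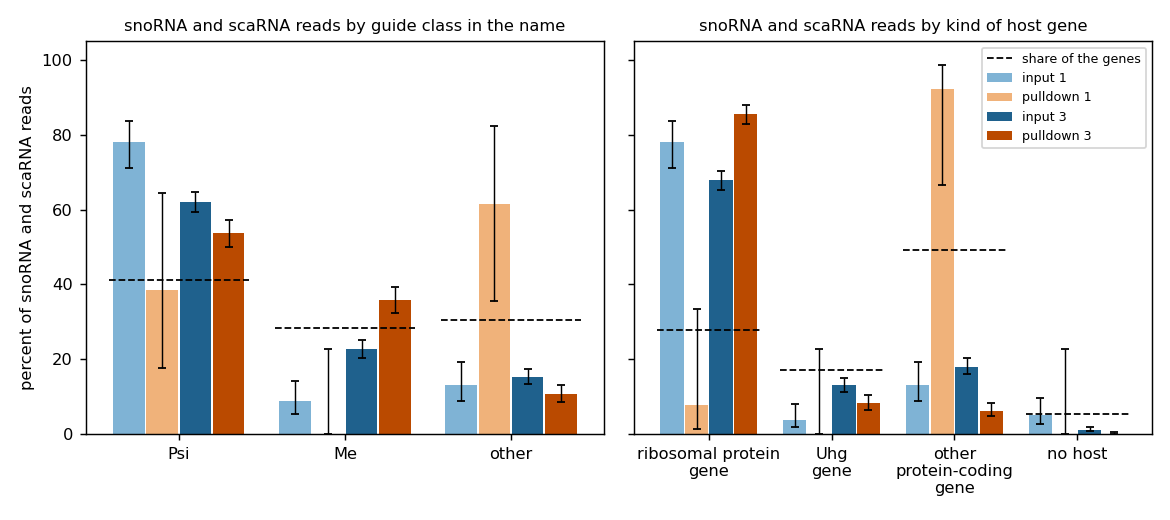
Percent of snoRNA and scaRNA reads (vertical axis) by guide class in the gene name (left) and by kind of host gene (right), with 1 bar per library, 95% Wilson intervals for counting error, and a dashed line at the share of the genes; the 1 gene in another noncoding host, with no reads, is left out. Members in ribosomal protein genes hold 78.1% of the reads in input 1, 67.8% in input 3 and 85.5% in pulldown 3, above their 27.9% of the genes.

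Ribosomal protein genes are also among the most highly counted hosts, so member reads were set against host counts. Hosts that were not matched to the counted identifiers were left out, among them RpL27A, the host of Me18S-C1831. The ribosomal protein hosts kept therefore cover 537 of the 615 reads on members in such genes in pulldown 3. Summed over 26 ribosomal protein hosts there were 0.6 and 1.46 member reads per 1000 host counts in inputs 1 and 3, while pulldowns 1 and 3 held 0.0356 and 1.21. Over 51 other protein-coding hosts the values were 0.289 and 0.698 in the inputs, against 1.01 and 0.341 in the pulldowns. Over 6 Uhg hosts, whose spliced RNA encodes no known protein, they were 8.77 and 60.1 in the inputs, against 0 and 30.8 in the pulldowns. In input 3 the Uhg hosts thus gave the most member reads per host count, with reads in 5 of the 6. The other Uhg values rest on few hosts: all 59 reads of pulldown 3 were on members of Uhg8 and the other 5 hosts had 0, and the 6 reads of input 1 were on members of Uhg2 and Uhg4.

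The summed member reads of single hosts differed between the libraries of replicate 3. Uhg8, with 212 counts in input 3 and 104 in pulldown 3, had 23 and 59 reads on its 3 members, whereas Uhg5, with 466 and 313 counts, had 62 reads on its 11 members in input 3 and 0 in pulldown 3. Uhg1 likewise went from 48 reads on its 16 members to 0, with 864 and 306 host counts. Among protein-coding hosts, kra, a translation regulator, had 64 member reads in input 3 and 0 in pulldown 3 while its own counts were 28022 and 13583. Sf3b3, a splicing factor gene, had 9 member reads in input 3 and 45 in pulldown 3 with 1308 and 207 host counts. RpS5a, host to 14 members, was even, with 94 member reads in input 3 and 91 in pulldown 3 on 11575 and 9259 host counts, and so was RpS16, with 86 and 100 on 11831 and 15828. The host counts did not fall to 0 where the members did. Each of those members had few reads of its own in input 3, at most 16 in kra, 28 in Uhg5 and 9 in Uhg1. Among other genes with 1 to 9, 10 to 19 and 20 to 49 input 3 reads, 93.6%, 80.0% and 58.3% were at 0 in pulldown 3. Whether the falls to 0 of these hosts' members go beyond that loss was not tested.

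**Figure D5:**
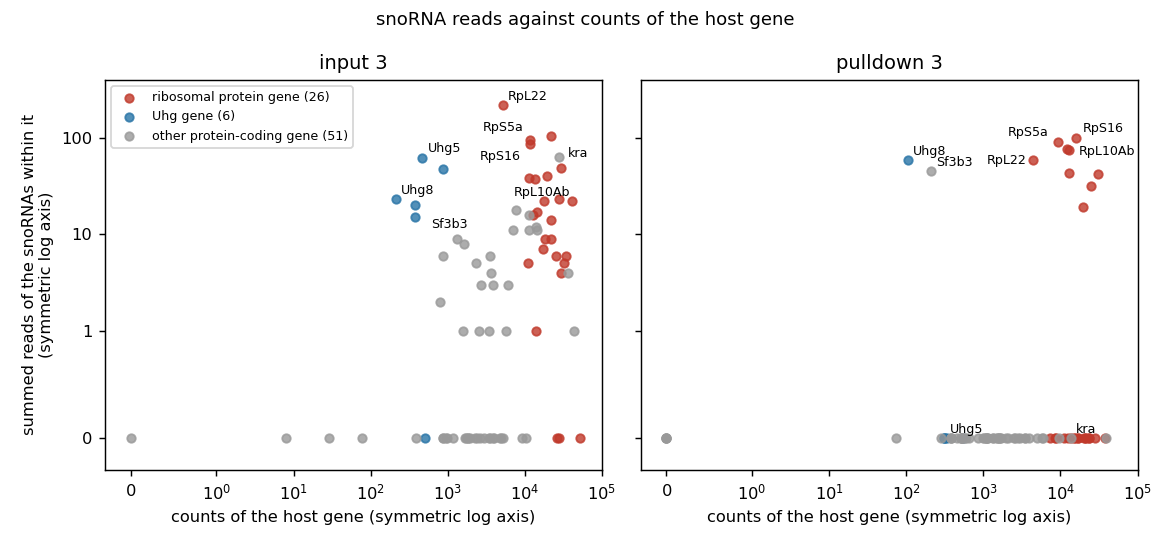
Summed reads of the snoRNAs and scaRNAs within a host gene (vertical symmetric log axis) against the counts of that host (horizontal symmetric log axis) in input 3 (left) and pulldown 3 (right), with 1 point per host and colour for the kind of host. Hosts such as kra and Uhg5 keep their own counts in pulldown 3 while the reads of their members are at 0. No single member of kra or Uhg5 had more than 28 reads in input 3.

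Several leading genes belong to families of similar copies that are named for the same rRNA position and share a host. The 5 copies of Psi18S-1377 in RpS7, 68.1% to 85.8% identical, had 17 reads in the first input, 93 in input 3 and 43 in pulldown 3. All 43 came from copy d, while copies a, c and e had 26, 16 and 25 reads in input 3 against 18 for d. The 4 copies of Psi28S-1192 in RpS5a, 54.2% to 87% identical, had 65 reads in input 3 and 77 in pulldown 3. The latter were 57 on copy b and 20 on copy c, with 0 on copy d, which had 20 reads in input 3. The 3 copies of Me18S-U1356 in Uhg8, 87.5% to 92.4% identical, had 5, 13 and 5 reads on a, b and c in input 3 and 25, 0 and 34 in pulldown 3. In all 3 of these families the copy with the most reads in pulldown 3 was not the copy with the most in input 3. A 0 in pulldown 3 was common at such counts, in 80.0% of other genes with 10 to 19 input 3 reads and 58.3% with 20 to 49. A difference between copies was not tested. None of them holds a repeated window of read length, so reads of full length could be placed. Among all members 9 hold such a window, and in 2, snoRNA:U3:54Aa and snoRNA:U3:54Ab, most windows are repeated; both were at 0 reads.

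Few members whose exons overlap another gene had reads. Of the 26 members that share exon bases with another annotated gene, 2 had a read, against 155 of the other 232. Whether reads in shared bases were discarded is not stated, so a 0 for these 26 genes is uncertain.

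For the comparison of pulldown with input, edgeR's quasi-likelihood test was run over the 7085 genes left by a filter on low counts, of which 8 were members. 0 of the 8 were called at a Benjamini-Hochberg adjusted p below 0.05 and a change of 2-fold, and 0% of all tested genes were called (smallest adjusted p 0.9999). At an unadjusted p below 0.05 there were 0 members, with 0.127% of all genes higher and 1.93% lower, and DESeq2 also called 0 members, with 0.0282% of all genes called. The members' median log2 fold change was -0.47, with 2 above 0 and 6 below, beside a median of -0.07 over all tested genes. The largest positive value was that of snoRNA:Me18S-C1831, 2.31 with an SE of 2.36, followed by snoRNA:Psi18S-920, 1.87 with an SE of 2.15. For snoRNA:Psi18S-531 it was -0.72 with an SE of 1.93. All of these are smaller than their errors, and the call of no change in a gene is not a measurement of equality.

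Within pairs, replicate 1 gave no usable ratio for the members tested, since pulldown 1 held 0 reads of all 8 and had only 0.232 of the depth of its input. The input 1 reads behind this were 12 for snoRNA:Psi18S-531, 13 for snoRNA:Psi28S-291, 11 for snoRNA:Psi28S-1175c and 9 for snoRNA:Psi28S-1192c. Within replicate 3 the log2 ratios of these genes, in the same order, were -0.48, 1.00, 0.09 and 0.74. The fitted log2 fold changes of the other 3 were -0.10 (SE 1.94) for Psi28S-291, -0.85 (SE 1.90) for Psi28S-1175c and -0.22 (SE 1.92) for Psi28S-1192c, so none of them was separated from 0.

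In 2 of the 8 tested members both pulldowns lay below both inputs, near the 20% of all tested genes that did so. In 0 members both lay above, where 6.21% of all tested genes did. Those below were snoRNA:Psi28S-2179, described above, and snoRNA:Psi18S-1377a, with 9 and 26 reads in inputs 1 and 3 and none in a pulldown. Both genes could pass the filter on low counts only through the inputs. Their place below both inputs was therefore fixed by the filter and is a description. The input CPM of Psi28S-2179 was 7.79-fold, and that of Psi18S-1377a 5.05-fold, the level of 3 counts over the pulldown group, which is 0.41 CPM. Their unadjusted p by the quasi-likelihood test was 0.0501 and 0.0621 and their adjusted p 0.9999. These folds are not bounds on a change, since the lowest nonzero member count of pulldown 3 was 11. Of the other genes with 20 to 49 reads in input 3, 58.3% were also at 0 in pulldown 3. Neither member passed the test.

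The 13 member reads of pulldown 1 fell on 3 genes that are not those of pulldown 3, apart from the 1 read on Psi28S-1192b. scaRNA:MeU2-C28, named for a cytidine of U2 snRNA and 49 bases long, had 8 of them (61.5%), beside 0 and 2 reads in the inputs and 0 in pulldown 3. snoRNA:Psi28S-3308, in Sf3b3, had 4 of them, beside 0 and 1 in the inputs and 0 in pulldown 3. Neither was seen in its own input, and neither passed the filter for the test.

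Reads on scaRNAs were few. Of the 15 scaRNA genes 6 had a read, with 2 and 15 reads in inputs 1 and 3, while pulldowns 1 and 3 held 8 and 0. scaRNA:MeU5-C46, named for U5 snRNA, had 2 reads in input 1 and 6 in input 3. scaRNA:PsiU2-38.40.42 had 3 reads in input 3, scaRNA:PsiU5-44 had 2, and scaRNA:MeU2-48 and scaRNA:PsiU2-55 had 1 each. These last 4 were at 0 in the other libraries, and no scaRNA was measured well enough for a comparison.

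The proteins that work with these RNAs were not called either, and all but Nop10 were counted well. Nop10 had 47 and 87 counts in the inputs, against 11 and 141 in the pulldowns, and an SE of 1.39. All 7 matched genes of the snoRNP list passed the filter, and 0 were called in either direction. Their median log2 fold change was 0.44 with 6 of 7 above 0, beside 3272 of the 7085 tested genes. For the H/ACA proteins the values were 1.02 for Gar1, 1.00 for Nop10, 0.44 for NHP2 and -0.10 for Nop60B, whose counts were 4827 and 14266 in the inputs, against 486 and 9681 in the pulldowns. For the C/D proteins they were 1.02 for Fib, 0.33 for Nop56 and 0.28 for nop5, and hoip was not matched. Of the 7 Uhg genes 6 were tested and 0 called, with 3 above 0 and a median of -0.01. They ran from -1.36 for Uhg3, with 362 and 502 counts in the inputs, against 1 and 333 in the pulldowns, to 1.25 for Uhg4, with 45 and 379 in the inputs, against 8 and 543 in the pulldowns. The adjusted p was 0.9999 for every gene of both lists in edgeR's quasi-likelihood test.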

How the data were processed

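The authors homogenised ovaries in RIPA buffer, set input aside, added antibody to the rest, and made poly(A)-selected directional libraries that were read single-end. Per the methods, reads were aligned to dm6 with HISAT2 and counted per gene with featureCounts; the submitters' processing notes give versions 2.1.0 and 1.4.6. The deposited values are raw counts per FlyBase gene, not normalised. Settings for strand, overlapping genes and repeated reads are not given in the sources used here, so genes on shared bases are uncertain.

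Of 17023 genes, 376 were not matched to the Ensembl annotation of dm6 and stayed in the totals. Hosts are genes that contain a member on the same strand. CPM used library totals, except in the log2 ratios of single genes. Pulldown was tested against input with edgeR 4.0.16 in R 4.3.3 (TMM, filterByExpr, group only, two-sided quasi-likelihood test, Benjamini-Hochberg over all tested genes). Log2 ratios of single genes within replicate 3 used log2 CPM with a prior count of 2. SEs came from the fit. Alternatives were DESeq2 1.42.0, other normalisations, no filter, the replicate block and leaving out each library. The edgeR and DESeq2 steps were tested on simulated data. The simulated dispersion (spread between libraries) was lower than the common dispersion of 0.539 fitted here. That test therefore does not cover data this variable.

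Group and number come from the sample titles. The methods take input and pulldown from 1 homogenate but do not mention the numbers, so the pairing rests on the titles. Deviations within pairs correlated at 0.414 over tested genes, which are not independent replicates.

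The members, classes, lists and tests were chosen with earlier results of these data known. Named genes were the 10 members with the most reads, tested members, scaRNAs with reads, the leading 3 of each class, their hosts, and the snoRNP protein and Uhg lists. Other genes were named after their values were seen: those steepest or at 0 in the pulldowns, pulldown 1's 3 genes, family copies and single hosts.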

Additional observations from a re-analysis of the deposited data

How the results depend on the processing

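No member was called under any alternative, including the replicate block, which changed no call (members' median log2 fold change -0.99 with the block), DESeq2, and no filter (157 members fitted). Over all genes the calls were 25 higher and 385 lower of 7085 without pulldown replicate 3, 1 and 27 without pulldown replicate 1, and 2 and 0 with no filter. Members with an unadjusted p below 0.05 were Psi28S-2179 with library totals alone (0.0441) and, without pulldown replicate 1, Me18S-C1831 (0.0292, higher), Psi18S-1377a (0.0358, lower) and Psi28S-2179 (0.0200, lower), where the smallest adjusted p of a member was 0.60. With a library left out, single genes ran from -6.00 to 7.46 (Me18S-C1831), -6.36 to 4.2 (Psi18S-920), -7.15 to 0.72 (Psi28S-291), -6.66 to 0.54 (Psi28S-1192c) and -8.60 to 0.44 (Psi18S-531). The members' median ran from -6.87 without pulldown replicate 3 to 0.35 without pulldown replicate 1, so its size and sign rest on single pulldowns. Of 48 values of named genes under other settings 1 changed sign, Psi28S-291 with upper-quartile factors (0.02). Of 32 with a library left out 8 did: Psi28S-291 (0.26 without input replicate 1, 0.72 without pulldown replicate 1), Psi28S-1192c (0.06 and 0.54), Psi18S-531 (0.16 without pulldown replicate 1, 0.44 without input replicate 3), and, without pulldown replicate 3, Me18S-C1831 (-6.00) and Psi18S-920 (-6.36). A lone library was assumed to vary like the other group. The cause was not tested.

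Genes with reads depended on the minimum: at least 10 reads left 4 in input 1, 0 in pulldown 1 and 32 in input 3, and at least 3 left 100 in input 3. Thinning to the shallowest library, with reads taken as independent, left 20.6 and 54.7 for the inputs and 17.6 for pulldown 3. The share of counts was 0.0108% in input 3 without the 10 most counted genes, and without Psi18S-531 it was 0.00878% in input 3 and 0.0104% in pulldown 3. Without the leading gene of each class, the Psi share was 58.3% in input 3 and 64.6% in pulldown 3, and that of other names 17.6% and 0%. Pulldown 1, with 13 member reads, cannot bear a comparison of single genes.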
